A study of Mus musculus with 12 samples.

Results

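Baseline gene expression was compared between undifferentiated PGK12.1 and WD44 mouse ES cells on arrays of cells that had received only control siRNAs. These were 6 of the 12 arrays of the series: PGK12.1 controls 1 to 4 and WD44 controls 1 and 2. PGK12.1 is a female line made by crossing a 129 female to a (129 × PGK)F1 male, and WD44 is a male line from BL6 blastocysts. Both were at passage 14-18, grew with leukemia inhibitory factor (LIF) on mouse embryonic fibroblast (MEF) feeders, and were depleted of feeders on gelatin before transfection. PGK12.1 controls 1 and 2 received scrambled siRNA in 2 rounds, of 100 pmol over 48 h followed by 400 pmol over 24 h. PGK12.1 controls 3 and 4 and both WD44 controls received 1 round, of 100 pmol over 48 h. The other 6 arrays carry Kdm6a siRNA in the same experiments, and served here as a repeat of the comparison between the lines. Each line is 1 clone, so the sex, the strain and the line itself cannot be told apart, and whether the WD44 experiments came from separate cultures is not stated.

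Because the arrays differ in scale, each value was turned into a percentile rank within its array over all 35556 probe sets, so that 100 is the brightest probe set and a difference of 10 points is a move past 10% of the probe sets. A rank orders probe sets by signal, which also depends on the probe, so ranks are compared between lines and not between genes. Of 19103 autosomal genes, 14749 reached a mean rank of 30 over the lines, and 4354 did not. Genes were described when all 4 PGK12.1 ranks lay above, or all below, both WD44 ranks. Of the genes that reached the minimum level, 4313 lay above (29.2%) and 3468 below (23.5%), 7781 together. Ranks are given in the order of controls 1 to 4 for PGK12.1 and controls 1 and 2 for WD44.

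ES cells grown with LIF hold a pluripotent state in which transcription factors such as Oct4 (Pou5f1), Nanog, Klf4, Tbx3, Esrrb and Prdm14 keep differentiation genes low. This naive state is set against the primed state of the later epiblast, which is driven by FGF and MAPK signalling and marked by genes such as Fgf5, Pou3f1 and Lef1. Female ES cells with both X chromosomes active are known for stronger naive gene expression, lower MAPK target expression and low DNA methylation. A few cells in ES cultures also pass through a state resembling the 2-cell embryo, with expression of Usp17l, Tdpoz, Pramel and Zfp352 family genes.

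Among the genes with the widest separation were 4 microRNA genes, Mir302a, Mir302b, Mir302c and Mir302d, all lower in PGK12.1. They are made with Mir367 from 1 primary transcript and are typical of pluripotent and early embryonic cells. The seed of a microRNA is the stretch from base 2 to base 8, which pairs with target messages. The sequences are printed to show the letters that the miR-302 genes share there, in RefSeq letters of GRCm38.p6, 5′ to 3′, plus strand, with the seed in capitals. The table holds no mature miR-302a-3p, so for Mir302a the hairpin is printed, with the seed letters of miR-302b-3p in capitals.
mmu-miR-302b-3p, chr3:127545275-127545297: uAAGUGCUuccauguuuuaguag
mmu-miR-302c-3p, chr3:127545406-127545427: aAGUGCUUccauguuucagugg
mmu-miR-302d-3p, chr3:127545665-127545687: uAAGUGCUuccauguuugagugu
mmu-miR-367-3p, chr3:127545779-127545800: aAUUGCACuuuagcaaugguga
Mir302a hairpin, chr3:127545496-127545564: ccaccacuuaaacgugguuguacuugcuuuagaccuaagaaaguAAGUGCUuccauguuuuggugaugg
The seed AAGUGCU was found in 5 of 1738 mature mouse sequences: miR-302b-3p, miR-302d-3p, miR-291a-3p, miR-294-3p and miR-295-3p. The last 3 of these had no probe set with a single gene name. The printed miR-302c-3p starts 1 base later on the same letters, so its seed reads AGUGCUU, while miR-367-3p has another seed.

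Mir302b ranked at 11.8, 8.6, 14.6 and 7.2 in PGK12.1, against 55.7 and 60.8 in WD44 (difference -47.7 points, SE 2.58, adjusted p = 0.000674). Mir302c ranked between 11.4 and 20.7 in PGK12.1, and both WD44 arrays were higher, with ranks of 51.1 and 55.0 (-38.9 points, SE 3.03, adjusted p = 0.00144). Mir302a ranked at 7.4, 9.9, 9.8 and 9.7 against 50.7 and 51.2 (-41.7 points, SE 1.3, adjusted p = 0.000146). For all of them the PGK12.1 signal lay among the dimmest probe sets of the array and the WD44 signal near its middle, a level that Sry, a Y-linked gene, also had in female PGK12.1 (50.7 to 56.9). Mir302d ranked at 17.2, 19.7, 14.7 and 19.3 against 59.0 and 63.1 (-43.3 points, SE 2.02, adjusted p = 0.000498). Mir367 stayed below the minimum level and was not tested, with ranks of 3.6, 0.4, 4.7 and 3.5 in PGK12.1 and 13.6 and 17.8 in WD44, which did not overlap either. The 5 microRNA genes lie inside the span of Larp7, which codes for a protein that binds 7SK RNA. Larp7 itself ranked at 82.4, 82.8, 86.5 and 85.6 against 86.5 and 87.0 (-2.4 points, SE 1.63, adjusted p = 0.305), a difference within the spread of PGK12.1. These probe sets read the precursor or primary transcript, not the mature microRNA.

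**Figure D1:**
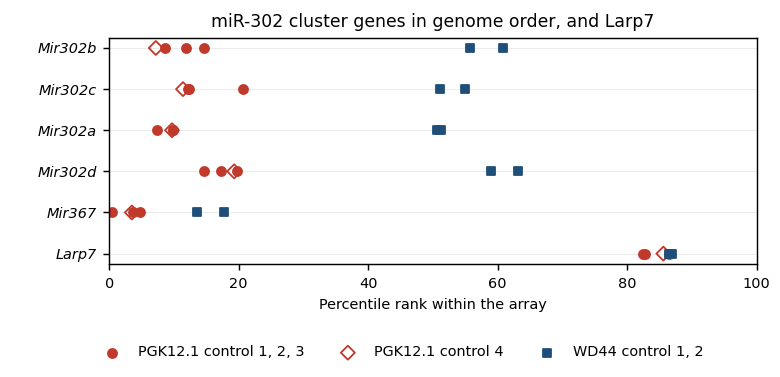
Percentile rank within the array (x axis, 0 to 100) of the miR-302 cluster genes, listed in genome order, and of Larp7. Circles are PGK12.1 controls 1 to 3, open diamonds PGK12.1 control 4 and squares the WD44 controls. The ranks of Mir302b, Mir302c, Mir302a and Mir302d are at most 20.7 in PGK12.1 and at least 50.7 in WD44, while Larp7 is high in both lines.

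The arrays were first set against their labels. Kdm6a, the X-linked histone demethylase targeted in the series, ranked at 87.9, 88.9, 88.1 and 91.5 in the PGK12.1 controls, and WD44 had 87.8 and 87.9 (adjusted p = 0.538). On the arrays with Kdm6a siRNA it ranked at 76.0, 75.4, 76.0 and 83.8 and at 79.1 and 79.6, below every control. Xist, also X-linked, ranked at 32.5, 29.2, 50.5 and 58.6 in the PGK12.1 controls against 28.9 and 29.4 in WD44 (limma adjusted p = 0.278). Its ranks in controls 1 and 2 were thus near those of WD44, and controls 3 and 4 lay above. The cause of this split was not tested. The Y-linked gene Eif2s3y ranked at 6.3 to 8.4 in PGK12.1, while WD44 had 76.7 and 77.9 (adjusted p = 1.7e-05), and Uty, Kdm5d and Zfy1 were likewise low in PGK12.1, as a female line would be. Sry, which ES cells do not need, ranked at 50.7 to 56.9 and 57.2 and 57.6, so that a rank near the middle of an array can be reached with no gene present. The 10 ES cell markers fixed for the check had a mean rank of 96.6 to 96.9 in PGK12.1 and of 94.3 and 94.0 in WD44. Median log2 values of the arrays were 6.21, 6.15 and 6.47 in PGK12.1 controls 1 to 3, but 8.21 in control 4 and 8.07 and 8.08 in WD44. Over all probe sets, ranks of control 4 correlated with those of WD44 at Spearman 0.960 and 0.963, against 0.928 to 0.940 for controls 1 to 3.

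The arrays of PGK12.1 controls 1 to 3 therefore differ from WD44 in scale as well as in line, and only control 4 shares the scale of WD44. Each gene was checked there: its difference in control 4 was set against the mean difference in controls 1 to 3. Of the 4313 higher genes, 2950 (68.4%) kept at least 50% of the difference in control 4, with a median share of 72.0%. Of the 3468 lower genes, 2044 (58.9%) did so, with a median share of 59.8%. The rule already asked control 4 to lie beyond both WD44 arrays, so genes that failed there are left out of these shares. Controls 1 to 3 without control 4 separated 6012 higher and 5247 lower genes from WD44. The genes that kept at least 50% were 20.0% and 13.9% of all autosomal genes tested. Most differences were small, with medians of 6.7 points for the higher and 6.9 points for the lower genes. A difference of at least 20 points was found for 126 higher and 229 lower genes, and of at least 30 points for 39 and 46. Of the genes at 20 points or more, 109 higher and 194 lower genes kept at least 50% in control 4.

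limma across all 15299 genes called 1657 autosomal genes higher in PGK12.1 (11.2%) and 1337 lower (9.07%) at an adjusted p under 0.05. These p-values rest on the ranks that also chose the genes, so for a gene chosen by its ranks they describe the separation and add no independent support. When the scale of the arrays was a covariate, so that the difference rests on control 4 against WD44, the calls were 1491 (10.1%) and 1185 (8.03%), of which 914 and 773 were also called without it. On log2 values centred on each array's median, 44.2% of the autosomal calls were higher in PGK12.1, against 55.3% on ranks. The median difference of all autosomal genes was 0.58 points. Without PGK12.1 control 4 the calls were 4303 higher and 3771 lower. Without WD44 control 1 they were 101 and 126, and without WD44 control 2, 90 and 114. The values without PGK12.1 controls 1, 2 and 3 were 864, 773 and 1345 higher and 763, 657 and 1057 lower.

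On the arrays with Kdm6a siRNA, which the rule did not use, 3642 autosomal genes lay above (24.7%) and 3539 below (24.0%). Of the 4313 higher genes, 3085 lay above there too, which is 71.5% of the genes higher on control arrays and 84.7% of those higher on the Kdm6a RNAi arrays. Of the 3468 lower genes, 2920 lay below again, which is 84.2% and 82.5% of the lists. Of the genes that differed by at least 20 points, 125 of 126 higher and 226 of 229 lower genes repeated. limma called 1055 higher (7.15%) and 1158 lower genes (7.85%) on those arrays. They share the experiments and the array scales with the controls, so they repeat the RNA preparation and the array but not the experiment.

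**Figure D2:**
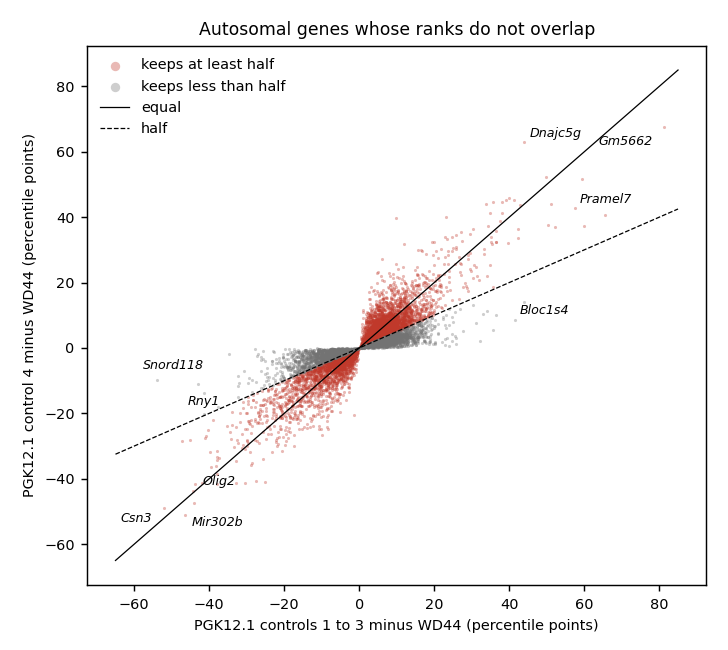
Difference from the WD44 mean in percentile points for each autosomal gene whose ranks do not overlap, as the mean of PGK12.1 controls 1 to 3 (x axis) and in PGK12.1 control 4 (y axis). The solid line marks equal differences and the dashed line 50% of them. Red points keep at least 50% (2950 higher, 2044 lower) and grey points less (1363 higher, 1424 lower).

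At the edge of the rule, Nmt1 ranked at 92.7, 93.0, 93.6 and 94.9 in PGK12.1 and 94.9 and 95.3 in WD44 and was just inside as lower. Tmeff1, at 92.1, 91.8, 93.2 and 88.8 against 88.8 and 88.6, was just inside as higher. Hnrnpd, at 98.2, 98.2, 97.9 and 93.2 against 92.9 and 93.2, was just outside, as was Rpf1. Direction varied with level. Of the 4000 genes with mean ranks from 30 to 50, 39.1% were higher and 15.1% lower in PGK12.1. Of the 1559 genes at ranks of 90 and more, 20.8% were higher and 26.9% lower. The share that kept at least 50% in control 4 went from 76.6% in the lowest of 4 such classes to 45.4% in the highest.

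By chromosome, the share of higher genes was largest on chromosomes 8 (37.6% higher, 16.9% lower of 809 genes) and 12 (34.9% and 16.7% of 550), and smallest on chromosome 3 (23.1% and 29.5% of 692). On chromosome 8 the median difference was 1.34 points over all arrays and 2.09 in control 4. For comparison, 263 of 494 X-linked genes (53.2%) were higher and 63 (12.8%) lower, with a median difference of 4.42 points.

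The 15 autosomal genes with the largest rank differences in each direction, among those that kept at least 50% in control 4, separated the lines by at least 40.6 points (higher) and 37.4 points (lower). In 14 of the 15 higher genes the WD44 mean, and in 10 of the 15 lower genes the PGK12.1 mean, was under the minimum rank of 30, so these genes reached it only through the line where they are high. The ranks and p-values on control arrays, control 4 included, chose these genes and are given as a description. On the Kdm6a RNAi arrays the differences ran from 33.5 to 80.5 points for the higher and from -53.2 to -30.2 points for the lower genes.

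Of the 15 higher genes, 3 are on the 2-cell-stage list: Pramel6, Pramel7 and Tdpoz3. Gm5662 had the widest difference, with ranks of 80.7, 83.2, 89.1 and 70.7 in PGK12.1 and 3.2 and 3.2 in WD44 (77.7 points, SE 4.74, adjusted p = 0.000985), from near the top to the bottom of the array. Eif4a3l1, a copy of the RNA helicase gene Eif4a3, ranked at 70.6, 76.7, 85.1 and 52.5 against 12.4 and 11.6 (59.3 points, SE 8.4). Tmem92, a membrane protein gene, ranked at 72.5, 72.5, 70.2 and 64.1 against 11.1 and 13.7 (57.4 points, SE 2.71). In each of these genes control 4 was the lowest PGK12.1 array and still far above WD44. Pramel7, a PRAME family member that lowers UHRF1 protein in naive ES cells, ranked at 74.0, 77.5, 87.0 and 64.9 against 23.4 and 20.8 (53.7 points, SE 5.64, adjusted p = 0.00348). Its neighbour in the family, Pramel6, ranked at 69.1, 74.5, 79.0 and 66.8 against 22.0 and 23.9 (49.4 points, SE 3.5, adjusted p = 0.00127). Tdpoz3, of a family with TRAF and POZ domains, ranked at 51.7, 59.7, 67.8 and 62.3 against 9.6 and 10.5 (50.3 points, SE 4.17, adjusted p = 0.00173). The PRAME and Tdpoz families hold near-identical copies, between which an array cannot fully tell. The same holds for Gm7982, whose 17 probe sets ranked together at 75.5, 77.9, 75.8 and 53.9 against 15.2 and 17.7 (54.3 points, SE 6.93).

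Dnajc5g, a DnaJ cochaperone gene, kept the largest share of its difference in control 4 (144%), with ranks of 62.4, 62.7, 70.9 and 84.4 against 21.6 and 21.3 (48.6 points, SE 6.31). Olfr153, an olfactory receptor gene, varied least, at 61.0, 62.2, 62.5 and 62.8 against 18.4 and 19.8 (43.1 points, SE 1.21, adjusted p = 0.000146). St8sia1, which codes for the GD3 ganglioside synthase, ranked at 74.2, 75.8, 75.0 and 69.0 against 32.8 and 32.6 (40.8 points, SE 2.13, adjusted p = 0.000607). In all of these the WD44 ranks lay in the lower part of the array. Nlrp9b, of the NLR family, ranked at 52.4, 57.9, 46.0 and 58.3 against 11.9 and 12.6 (41.4 points, SE 3.64). Mmrn2, an extracellular matrix gene of vessels, ranked at 59.3, 62.1, 68.3 and 69.4 against 22.6 and 25.8 (40.6 points, SE 3.22). BC147527, AF067061 and 1810037I17Rik made up the rest, with differences of 48.4, 47.2 and 42.3 points.

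Lower in PGK12.1, beside the miR-302 genes, was first Csn3, the kappa-casein gene, with ranks of 9.2 to 13.4 over the 4 PGK12.1 controls and 60.5 and 64.1 in WD44 (-51.2 points, SE 1.74, adjusted p = 0.000175). Trim12a, a TRIM5-related gene, ranked at 7.8, 5.9, 15.7 and 6.4 against 53.9 and 53.7 (-44.9 points, SE 2.97). Olig2, a neural bHLH transcription factor, ranked at 40.7, 37.2, 35.4 and 38.3 against 81.4 and 82.6 (-44.1 points, SE 1.73, adjusted p = 0.000268). PGK12.1 varied by few points in Csn3 and Olig2. Control 4 was the highest PGK12.1 array for Csn3 and lay among the others for Olig2. Sema6a, a semaphorin gene, ranked at 44.1, 46.2, 53.4 and 66.7 against 94.4 and 95.8 (-42.5 points, SE 6.26, adjusted p = 0.009). It was among the brightest probe sets in WD44 and its control 4 rank lay closer to WD44, keeping 60.2% of the difference. Fabp7, the brain fatty acid binding protein gene, ranked at 17.6, 17.9, 10.8 and 28.8 against 53.8 and 59.1 (-37.6 points, SE 4.81). Shisa6, an auxiliary subunit of AMPA receptors, ranked at 28.8, 30.0, 37.8 and 35.3 against 71.2 and 72.1 (-38.7 points, SE 2.78). Tex15, a germ line gene, ranked at 25.3, 28.3, 31.4 and 42.2 against 69.3 and 69.1 (-37.4 points, SE 4.56). Vaultrc5, a vault RNA, Tmem267, Plac8 and the serine protease gene Tmprss11f differed by -40.9, -38.0, -37.8 and -37.6 points.

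**Figure D3:**
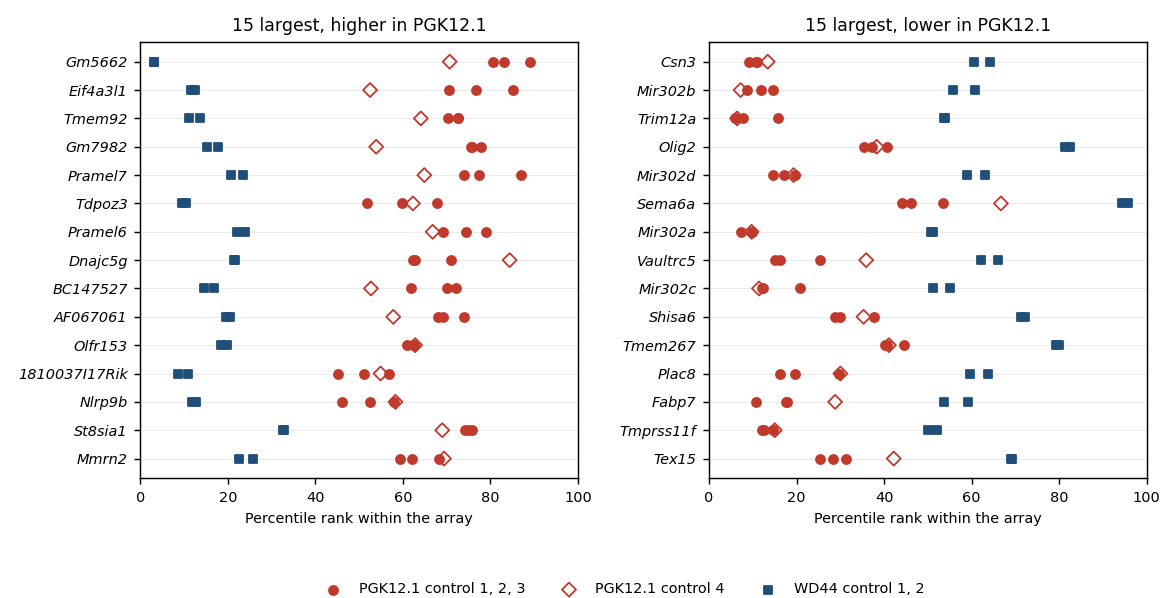
Percentile rank within the array (x axis, 0 to 100) of the 15 autosomal genes with the largest differences that keep at least 50% of them in PGK12.1 control 4, higher (left) and lower (right) in PGK12.1. Circles are PGK12.1 controls 1 to 3, open diamonds control 4 and squares the WD44 controls. By the choice of the genes, the lines overlap in none and control 4 lies on the PGK12.1 side in each.

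Genes that did not keep 50% in control 4 show what the check removes. Bloc1s4, which serves lysosome-related organelles, ranked at 81.1, 79.1, 79.4 and 47.0 in PGK12.1 and 41.2 and 35.7 in WD44, so that control 4 kept 20.7% of the difference. Gm5039 ranked at 65.5, 69.5, 64.2 and 36.6 against 20.0 and 24.8, with 32.4% kept. Snord118, the U8 small nucleolar RNA, ranked at 13.6, 11.3, 29.3 and 62.1 against 71.9 and 72.1, with 18.3% kept. In all of these control 4 lay nearer to WD44 than to controls 1 to 3. Rny1, the Y1 RNA, did likewise, at 15.5, 22.5, 48.5 and 60.8 against 71.1 and 72.3. Fermt1 kept 48.6% and the germ line gene Stk31 27.5%. For these genes array scale and line move together, and their parts were not tested.

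Naive pluripotency genes were more often higher than lower in PGK12.1. Of 32 autosomal members that reached the minimum level, 16 lay above both WD44 controls (29.2% of all genes did) and 2 below (23.5% of all genes), with a median difference of 2.03 points against 0.58 for all genes. limma called 9 higher and 0 lower, against 11.2% and 9.07% of all genes. In control 4, 14 of the 16 kept at least 50%, as did 68.4% of all higher genes. Prdm14, which represses DNA methyltransferase and FGF signalling genes, ranked at 75.2, 76.3, 80.4 and 79.4 in PGK12.1, with a WD44 mean of 53.8 (24.1 points, adjusted p = 0.00143). Zfp42 (Rex1), a standard marker of the naive state, ranked at 94.1, 93.9, 95.0 and 88.1 against 72.1 and 71.9 (20.8 points, adjusted p = 0.00345). Tcl1, a cofactor of AKT, ranked at 90.4, 90.2, 91.5 and 95.5 against 73.4 and 70.7 (19.8 points, adjusted p = 0.0027). The lines were well apart in each, and Tcl1 was further apart in control 4 than in the others. Tbx3, a T-box factor, ranked at 92.6, 92.0, 90.9 and 92.8 against 75.2 and 73.5 (17.8 points, adjusted p = 0.00125). Klf2 (12.5 points, adjusted p = 0.0047) and Klf4 (9.9 points, adjusted p = 0.0174, and 0.0537 with the scale covariate), Krüppel-like factors of the same network, were also called, as were Fbxo15, Jam2 and Pecam1.

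The core factors lay near the top of the arrays in both lines, where ranks leave little room. Pou5f1 ranked at 98.6, 98.6, 98.4 and 98.1 in PGK12.1 and 97.4 and 97.1 in WD44 (1.2 points, adjusted p = 0.427), and Nanog at 98.9, 98.9, 98.7 and 98.5 against 96.2 and 96.0 (2.6 points, adjusted p = 0.126). Both lay above WD44 in every control without passing the test on ranks. On quantile-normalized log2 values they passed (Nanog 1.01, adjusted p = 0.00362, and Pou5f1 0.48, adjusted p = 0.0374). Esrrb ranked at 95.1, 94.8, 96.1 and 96.5 against 92.2 and 90.2 (4.5 points, adjusted p = 0.0536), and differed by 0.91 on quantile-normalized log2 values (adjusted p = 0.0173). The 2 members that lay below were Sall4 (-1.9 points, adjusted p = 0.263) and Utf1 (-1.0 points, adjusted p = 0.492). In limma on quantile-normalized log2 values these passed as well, as lower (Sall4 -0.59, adjusted p = 0.0412, and Utf1 -0.52, adjusted p = 0.0275).

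Primed pluripotency genes were mostly lower in PGK12.1. Of 18 members, 2 (11.1%) lay above WD44 and 11 (61.1%) below, against 29.2% and 23.5% of all genes. The median difference was -8.51 points, and limma called 2 higher and 8 lower, against 11.2% and 9.07% of all genes. Of the 11, 9 kept at least 50% in control 4, as did 58.9% of all lower genes. Pou3f1 (Oct6), a POU factor of the epiblast, ranked at 68.0, 67.1, 69.4 and 68.3 in PGK12.1 and 85.6 and 86.6 in WD44 (-17.9 points, adjusted p = 0.00125). Sox11 ranked at 58.1, 58.2, 64.4 and 57.6 against 81.4 and 81.5 (-21.9 points, adjusted p = 0.00307), and Cdh2, or N-cadherin, at 62.8, 64.4, 60.8 and 65.5 against 82.5 and 81.8 (-18.8 points, adjusted p = 0.00191). These separations were wide beside the spread within either line. Fgf5, the epiblast growth factor, varied more, at 47.7, 50.6, 61.5 and 59.0 against 68.6 and 73.7 (-16.5 points, adjusted p = 0.0432, and 0.233 with the scale covariate). The epithelial keratin Krt18 had the largest difference on the list, at 59.5, 61.3, 81.4 and 71.4 against 94.4 and 94.0 (-25.8 points, SE 6.18, adjusted p = 0.0342), and was not called with the scale covariate (adjusted p = 0.167). Dnmt3b, a de novo DNA methyltransferase, ranked at 90.1, 89.7, 88.6 and 88.1 against 95.1 and 95.5 (-6.2 points, adjusted p = 0.0193). The members that went the other way were Fgf15, at 80.0, 79.5, 83.0 and 84.4 against 64.0 and 66.8 (16.4 points, adjusted p = 0.00449), and Fgf8 (5.0 points, adjusted p = 0.0495, and 0.138 with that covariate). Otx2 differed by 0.1 points.

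**Figure D4:**
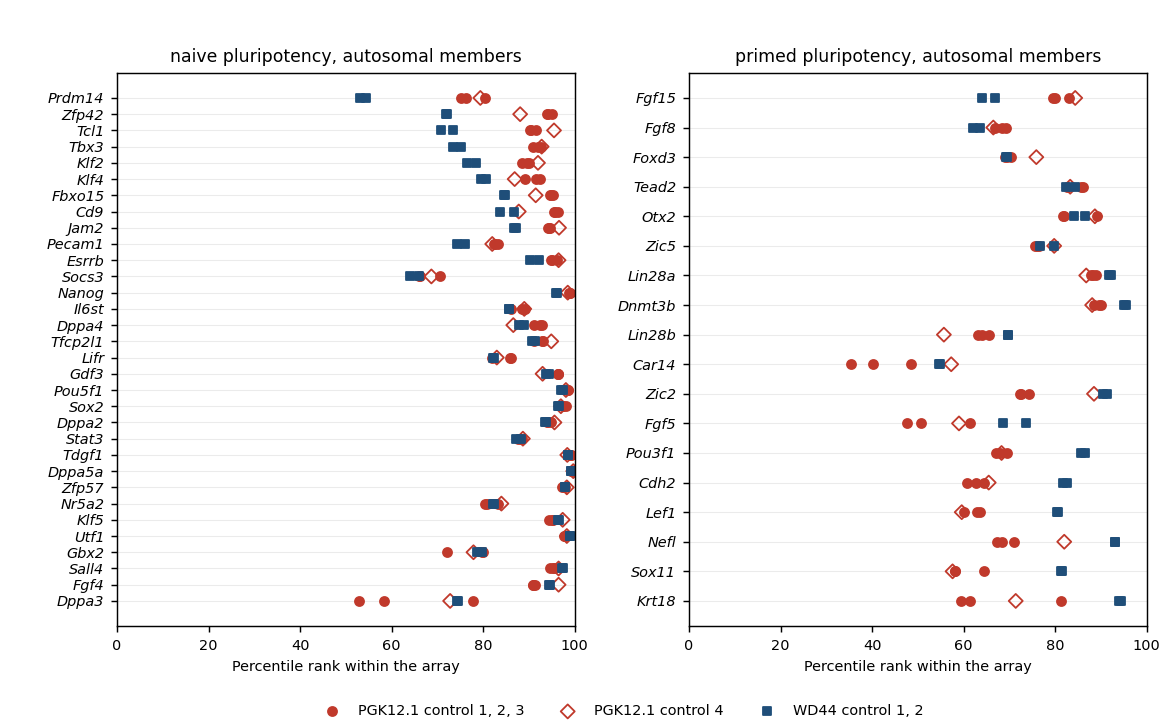
Percentile rank within the array (x axis, 0 to 100) of the autosomal members of the naive (left) and primed (right) pluripotency lists, ordered by the difference between the lines. Circles are PGK12.1 controls 1 to 3, open diamonds control 4 and squares the WD44 controls. Prdm14, Zfp42, Tcl1 and Tbx3 stand out to the right in PGK12.1, and Krt18, Sox11, Nefl and Lef1 stand out to the left.

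Genes of the FGF and MAPK list and of the Wnt list were more often lower than higher in PGK12.1, with members in both directions. Of 26 genes of FGF and MAPK signalling and feedback, 2 (7.69%) lay above and 16 (61.5%) below, against 29.2% and 23.5% of all genes. The median difference was -5.54 points, and limma called 1 higher and 4 lower, against 11.2% and 9.07% of all genes. In control 4, 10 of the 16 kept at least 50%, near the 58.9% of all lower genes. Dusp6, an ERK phosphatase that ERK induces, ranked at 85.3, 85.4, 85.1 and 85.5 in PGK12.1 and 94.5 and 94.3 in WD44 (-9.1 points, adjusted p = 0.00453). Dusp14 ranked at 71.0, 70.0, 71.9 and 72.2 against 87.0 and 87.4 (-15.9 points, SE 1.22, adjusted p = 0.00144). Both were even within each line. Fosl1, an AP-1 subunit, ranked at 34.9, 29.7, 46.2 and 46.0 against 67.9 and 69.3 (-29.4 points, adjusted p = 0.0142, and 0.0827 with the scale covariate), while Fos, another subunit, was the gene called higher (12.2 points, adjusted p = 0.0206). The receptor gene Fgfr2 was called lower (-9.7 points, adjusted p = 0.00541), whereas Egr1 overlapped, at 53.5, 52.9, 54.6 and 75.3 against 68.6 and 72.3.

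Of 22 Wnt pathway genes, 4 (18.2%) lay above and 12 (54.5%) below, against 29.2% and 23.5% of all genes. The median difference was -5.17 points, and limma called 3 higher and 8 lower, against 11.2% and 9.07% of all genes. Lef1, a nuclear effector of Wnt signals that is also on the primed list, ranked between 59.6 and 63.5 in PGK12.1 against 80.4 and 80.7 (-19.0 points, adjusted p = 0.0018). Among ligands, Wnt3 ranked at 40.5, 45.6, 46.7 and 44.3 against 61.0 and 62.9 (-17.7 points, adjusted p = 0.00426), and Wnt8a was called lower too (-14.8 points, adjusted p = 0.00367), but Wnt3a ranked at 55.4, 51.7, 50.5 and 52.8 against 42.4 and 42.7 (10.1 points, adjusted p = 0.0122). The ligands thus did not go one way. Axin2, a common Wnt target, differed by -7.3 points (adjusted p = 0.017). Notum, a secreted Wnt inhibitor, was higher, at 81.7, 81.1, 77.0 and 71.6 against 62.7 and 60.6 (16.2 points, adjusted p = 0.0173).

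Genes of epithelial junctions were lower in PGK12.1 more often than any other list drawn in the plot of lists. Of 25 members, 19 lay below WD44 (76.0%) and 2 above (8.0%), against 23.5% and 29.2% of all genes. The median difference was -5.57 points, and limma called 10 lower and 1 higher, against 9.07% and 11.2% of all genes. In control 4, 14 of the 19 kept at least 50%, as did 58.9% of all lower genes. Marveld2, or tricellulin, ranked at 41.5, 42.2, 47.4 and 38.5 in PGK12.1 and 63.0 and 64.2 in WD44 (-21.2 points, adjusted p = 0.00451). The desmosomal cadherin gene Dsc2 ranked at 36.8, 37.2, 41.7 and 29.9 against 58.3 and 56.6 (-21.0 points, adjusted p = 0.00956). Cldn7, a claudin, ranked at 58.8, 53.8, 67.3 and 66.5 against 82.8 and 81.0 (-20.3 points, adjusted p = 0.0209), and Ocln, or occludin, differed by -20.4 points (adjusted p = 0.0408). The last pair was not called with the scale covariate (adjusted p = 0.122 and 0.236). Epcam differed by -5.6 points (adjusted p = 0.0299), and E-cadherin, Cdh1, by -3.4 points (adjusted p = 0.104).

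Trophoblast genes were more often lower as well. Of 16 members, 1 (6.25%) lay above and 10 (62.5%) below, against 29.2% and 23.5% of all genes, with a median difference of -11.58 points. limma called 0 higher and 7 lower, against 11.2% and 9.07% of all genes. With the scale covariate it called 1 and 3, against 10.1% and 8.03% of all genes. Krt8, Krt18, Krt7, Id2, Ascl2 and Eomes lost the call there (adjusted p = 0.206, 0.167, 0.0503, 0.0785, 0.103 and 0.0602). Of the 7, only Plet1 kept it (adjusted p = 0.00862). The others called lower there, Cdx2 and Hand1 (adjusted p = 0.00342 and 0.0085), were not called without the covariate. Krt8 ranked at 72.1, 71.4, 89.3 and 80.0 in PGK12.1 and 97.2 and 97.1 in WD44 (-18.9 points, adjusted p = 0.0484). Plet1, a placental surface protein gene, ranked at 63.8, 64.6, 62.3 and 77.6 against 90.0 and 89.6 (-22.8 points, adjusted p = 0.0187), with 46.6% kept in control 4. Eomes, a T-box factor of trophoblast and mesendoderm, ranked at 52.8, 55.5, 59.0 and 62.0 against 72.8 and 71.7 (-14.9 points, adjusted p = 0.0153). The trophoblast factor Cdx2 ranked at 48.1, 46.7, 46.5 and 33.3 against 55.7 and 55.5 (-11.9 points, adjusted p = 0.0969) and did not pass the test over all arrays, while Elf5 differed by -1.1 points.

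The 2-cell-stage list has 21 entries, of which 11 were measured, and all 11 lay above WD44 in PGK12.1 (30.4% of all 19103 autosomal genes measured did, with no minimum level). Of the 8 that reached the minimum level, 7 had a WD44 mean rank under 30 and so reached it only through PGK12.1, where they are high, so their calls by limma are no separate support. They include Pramel6, Pramel7 and Tdpoz3, which the ranking by size also found. Usp17lc, a deubiquitinase gene, ranked at 58.1, 59.0, 63.2 and 63.0 in PGK12.1, with a WD44 mean of 25.7 (35.1 points, adjusted p = 0.00088). Zfp352, a zinc finger gene, ranked at 45.6, 47.8, 57.1 and 66.8 against 28.6 and 25.3 (27.4 points, adjusted p = 0.0267). Arg2, or arginase 2, differed least, at 47.4, 46.9, 50.7 and 46.0 against 37.1 and 38.2 (10.1 points, adjusted p = 0.0122). Spz1, Usp17la and Tcstv3 stayed below the minimum level. The entries not measured had no probe set with a single gene name. In RNA from whole cultures, more cells in such a state and more RNA per cell cannot be told apart, and the Usp17l genes are near-identical copies.

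Germ cell genes were more often higher than lower. Of 25 members, 13 (52.0%) lay above and 2 (8.0%) below, against 29.2% and 23.5% of all genes. The median difference was 6.67 points, and limma called 6 higher and 1 lower, against 11.2% and 9.07% of all genes. In control 4, 7 of the 13 kept at least 50%, a smaller share than the 68.4% of all higher genes. Hormad1, of the meiotic chromosome axis, ranked at 66.4, 71.0, 79.5 and 71.8 in PGK12.1 and 44.1 and 42.7 in WD44 (28.8 points, adjusted p = 0.00497). Its probe sets differed in size, at 14.8 and 42.7 points. Syce1, of the synaptonemal complex, ranked at 78.3, 78.3, 71.5 and 69.9 against 53.9 and 56.0 (19.5 points, adjusted p = 0.00931). Kit and Dazl were called as well (12.2 points, adjusted p = 0.00562, and 8.7 points, adjusted p = 0.0365), Dazl not with the scale covariate (adjusted p = 0.14). Tex19.1, at 80.6, 79.9, 78.2 and 62.7 against 60.6 and 56.3, did not pass the test (adjusted p = 0.071), and control 4 kept 20.0% of its difference. Tdrd1 was the gene called lower (-12.2 points, adjusted p = 0.0393).

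**Figure D5:**
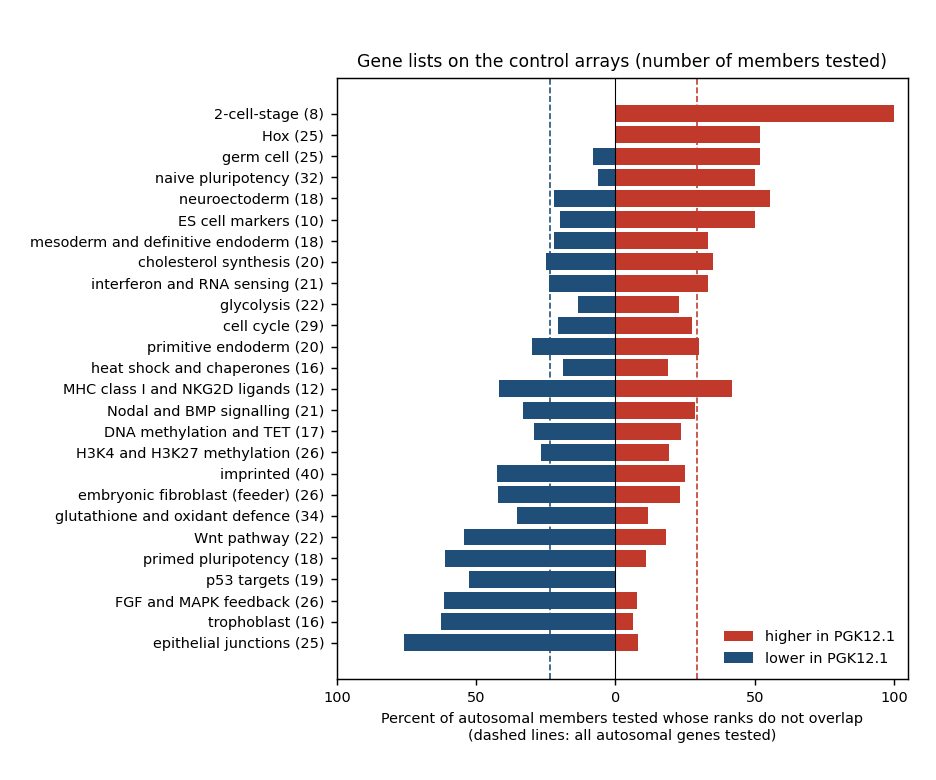
Percent of the autosomal members tested of each gene list (number in brackets) whose ranks lie above (red, to the right) or below (blue, to the left) both WD44 controls in all PGK12.1 controls. Dashed lines mark all autosomal genes tested, 29.2% and 23.5%; the 2-cell-stage list, of whose 8 genes 7 reached the minimum level only through PGK12.1, is furthest to the right, and the epithelial junction list furthest to the left.

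Imprinted genes, which are expressed from 1 parental allele and whose marks are known to be unstable in ES cell culture, were more often lower than higher in PGK12.1. Of 40 members, 10 lay above (29.2% of all genes did) and 17 below (23.5% of all genes), limma called 4 (11.2% of all genes were called) and 11 (9.07% of all genes), and the median difference was -1.04 points. Igf2, the paternally expressed growth factor, ranked at 56.7, 57.3, 58.9 and 50.9 in PGK12.1 and 86.8 and 86.4 in WD44 (-30.7 points, SE 2.36, adjusted p = 0.00144). Nnat, or neuronatin, ranked at 52.6, 53.5, 59.5 and 65.7 against 89.0 and 89.5 (-31.4 points, SE 3.81, adjusted p = 0.00505). The long noncoding RNA Airn ranked at 15.8, 18.5, 20.9 and 22.9 against 51.7 and 50.4 (-31.6 points, SE 2.15, adjusted p = 0.00124). Of the 17 genes below, 3, Airn included, had a PGK12.1 mean rank under 30 and reached the minimum level only through WD44. With no minimum level, the same 40 members compare with 30.4% above and 20.0% below of all autosomal genes measured. Airn is known to silence Igf2r on the paternal allele, and Igf2r itself differed by -3.7 points (adjusted p = 0.171). Grb10, a growth inhibitor, was lower as well (-19.6 points, adjusted p = 0.00553). In the other direction Sgce, or epsilon-sarcoglycan, ranked at 69.3, 68.7, 69.4 and 74.2 against 37.5 and 41.6 (30.8 points, SE 2.12, adjusted p = 0.00125). Its imprinted neighbour Peg10 was higher too, at 97.3, 97.2, 96.2 and 99.1 against 92.3 and 91.9 (5.4 points, adjusted p = 0.0346).

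Fibroblast genes were measured because feeder cells were removed only by gelatin. Of 26 markers, 6 (23.1%) lay above and 11 (42.3%) below, against 29.2% and 23.5% of all genes. limma called 2 higher and 8 lower, against 11.2% and 9.07% of all genes. The mean rank was 56.7 to 57.4 in PGK12.1 and 63.1 and 63.2 in WD44. Thbs1, a matrix glycoprotein, ranked at 62.8, 62.9, 72.7 and 65.8 against 93.9 and 94.1 (-28.0 points, SE 2.99, adjusted p = 0.00366). Dcn, or decorin, an imprinted gene too, ranked no higher than 28.8 in PGK12.1 against 51.3 and 56.0 (-28.7 points, adjusted p = 0.00144). Of the 11 markers below, 3, Dcn included, had a PGK12.1 mean rank under 30 and reached the minimum level only through WD44. With no minimum level, 7 of 29 markers lay above (24.1%) and 12 below (41.4%), against 30.4% and 20.0% of all autosomal genes measured. The contractile genes Tagln and Acta2 differed by -30.3 and -29.5 points (adjusted p = 0.0124 and 0.033), and Acta2 was not called with the scale covariate (adjusted p = 0.137). The fibrillar collagen genes did not share this direction: Col1a1 ranked at 65.5, 64.0, 62.0 and 66.0 against 65.1 and 65.4 (-0.9 points, adjusted p = 0.693), and Col3a1 at 58.1, 54.5, 55.9 and 49.8 against 43.3 and 44.1 (10.9 points, adjusted p = 0.0262, and 0.0712 with the scale covariate). The fibroblast markers Lum and Fap lay near the bottom of all 6 arrays. The part of feeder cells in the lower genes was not tested.

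Of 19 p53 target genes, 0 lay above and 10 (52.6%) below, against 29.2% and 23.5% of all genes. The median difference was -3.16 points. limma called 2 lower, near the 9.07% of all genes: Perp (-9.3 points, adjusted p = 0.00566) and Zmat3 (-10.4 points, adjusted p = 0.0182). Hox genes lay at low ranks, where more of all genes were higher too (39.1% at ranks from 30 to 50). Of 25 members 13 lay above (52.0%) and 0 below, with a median difference of 5.98 points, and limma called 3, near the 11.2% of all genes. Among the 3 was Hoxb5, at 46.0, 43.8, 35.0 and 33.0 against 22.3 and 23.1 (16.7 points, adjusted p = 0.0345, and 0.195 with the scale covariate). Of the 13 that lay above, 3, Hoxb5 included, had a WD44 mean rank under 30 and reached the minimum level only through PGK12.1. With no minimum level, 20 of 37 Hox genes lay above (54.1%) and 0 below, against 30.4% and 20.0% of all autosomal genes measured. Of 34 genes of glutathione and oxidant defence, 4 (11.8%) lay above and 12 (35.3%) below, against 29.2% and 23.5% of all genes. Of the 12, only 4 kept at least 50% in control 4, against 58.9% of all lower genes. Gstk1, for example, ranked at 45.4, 43.3, 55.2 and 70.3 against 74.0 and 74.2. Nnt, the mitochondrial transhydrogenase that C57BL/6J mice carry with a deletion, was higher in WD44, at 78.9, 76.6, 75.1 and 76.6 in PGK12.1 against 89.0 and 89.0 (-12.2 points, adjusted p = 0.00451). WD44, the higher line, is the one from BL6 blastocysts, and whether it carries the deletion was not tested.

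Several lists held wide differences in both directions. Over all genes, 29.2% lay above and 23.5% below, and limma called 11.2% higher and 9.07% lower. Of 18 neuroectoderm genes, 10 lay above (55.6%) and 4 below (22.2%), with a median difference of 3.66 points, but limma called 3 higher and 4 lower. The 4 were Olig2, Fabp7, Sox11 and Nes (-20.3 points, adjusted p = 0.00575), while the neural adhesion gene Ncam1 was higher, at 76.4, 75.8, 78.6 and 79.7 against 63.0 and 64.4 (14.0 points, adjusted p = 0.00427). Fabp7 reached the minimum level only through WD44, where it is high. Of 21 Nodal and BMP genes, 6 lay above and 7 below. Inhbb, an activin subunit, ranked at 73.2, 75.3, 66.3 and 67.2 against 48.4 and 48.6 (22.0 points, adjusted p = 0.00611), while the BMP target Id2 ranked at 75.0, 74.3, 82.7 and 83.7 against 96.5 and 96.7 (-17.7 points, adjusted p = 0.0153, and 0.0785 with the scale covariate). Of 21 interferon and RNA sensing genes, 7 lay above and 5 below. Oas1a, an oligoadenylate synthetase, ranked at 72.1, 72.7, 70.2 and 65.3 against 43.6 and 37.5 (29.5 points, adjusted p = 0.00222), and its relative Oasl2 at a mean of 47.1 in PGK12.1 against 67.3 and 70.6 (-21.8 points, adjusted p = 0.0111). Of 17 DNA methylation genes, 4 lay above and 5 below, with Tet3 at 45.4, 44.1, 49.1 and 58.1 against 64.0 and 65.4 (-15.5 points, adjusted p = 0.0408, and 0.117 with the scale covariate).

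The lists of glycolysis, cholesterol synthesis, chaperones, cell cycle and histone methylation stayed closer to the share of all genes (29.2% above, 23.5% below). Among 22 glycolysis genes 5 lay above and 3 below, and Pfkp, a phosphofructokinase, was the one far apart, at 93.5, 93.1, 94.9 and 93.0 against 77.9 and 75.6 (16.9 points, adjusted p = 0.00144). Among 20 cholesterol synthesis genes 7 lay above and 5 below, among 16 chaperone genes 3 and 3, among 29 cell cycle genes 8 and 6, and among 26 genes of H3K4 and H3K27 methylation 5 and 7. Of 20 primitive endoderm genes 6 lay above and 6 below, with Hnf4a at 61.8, 61.3, 62.0 and 74.6 against 44.3 and 45.4 (20.1 points, adjusted p = 0.0211). Of 18 mesoderm and definitive endoderm genes, 6 lay above and 4 below. Of 12 genes of MHC class I and NKG2D ligands, 5 lay above and 5 below (41.7% each), more than of all genes in both directions. H2-M5 ranked at 84.7, 85.6, 84.7 and 84.1 against 65.6 and 66.4 (18.8 points, adjusted p = 0.000985). Of 5 genes known to vary between 129 and C57BL/6 strains that reached the minimum level, 3 lay above and 1, Nnt, below.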

How the data were processed

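Total RNA was hybridized to 12 Mouse Gene 1.0 ST arrays (Affymetrix). The authors processed them with Expression Console and RMA and deposited log2 values per probe set, by their methods and the submitters' processing notes. The version of either tool is not given in the sources used here, nor is the set of arrays put through RMA at once. The number of arrays limits the precision, and p-values measure only the spread between these arrays, which in WD44 may be technical.

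Values were ranked within each array. Of 35556 probe sets, 21789 had 1 gene symbol in GEO's platform annotation, 1621 several and 12146 none. Of the named ones, 21698 matched RefSeq of GRCm38.p6 by Entrez ID. Ranks of the probe sets of a gene (999 genes with several) were averaged, giving 19938 genes, of which 15299 with a mean rank over the lines of at least 30 were tested with limma 3.58.1 in R 4.3.3 (line as the term, Benjamini-Hochberg over all 15299, threshold 0.05). A permutation test of 4 against 2 arrays cannot go below p = 0.0667 and was not used. No pair of arrays held identical values. The fit was tested on simulated data. Ranks, lists and plots were made with Python 3.11.15, pandas 2.3.3 and matplotlib 3.10.9. RefSeq gave the microRNA sequences.

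Named were the 15 largest differences per direction that kept at least 50% in PGK12.1 control 4, the 3 largest per direction that did not, and up to 4 members per list. Other list members were chosen after their values were seen. The members and lists were chosen with earlier results of these data known. Alternatives were other minimum levels, quantile-normalized or median-centred log2 values, ranks over genes, single probe sets, the array scale as covariate, single RNAi only, a replicate block, trended robust moderation, a gap of 5 points, control 4 alone, and leaving out each array.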

Additional observations from a re-analysis of the deposited data

Results flagged for a closer look

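In 19 of 131 named genes, 1 of the 4 PGK12.1 controls lay far from the other 3, by the ratio of its gap to the whole range of the group. Chance alone flags about 1 in 20 groups of 4. Control 4, the array with the scale of WD44, was the one apart in 14 of the 19: Hnf4a (0.947), Bloc1s4 (0.939), Msmo1 (0.938), Rbl1 (0.908), Gm7982 (0.903), Sgce (0.872), Mbd4 (0.87), Tex19.1 (0.87), B2m (0.859), Plet1 (0.851), Stard4 (0.845), Hspa5 (0.842), Zfp42 (0.839) and Gm5039 (0.838). In Hnf4a, Sgce and Hspa5 control 4 lay further from WD44 than the other controls did, and in all the rest of the 14 it lay nearer. Control 3 was the one apart in Tagln (0.916), Sox11 (0.908), Mir302c (0.901) and Tcf7l2 (0.835), and control 1 in Mir302a (0.929). The array scale was not tested as their cause.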

How the results depend on the processing

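Against the 1657 higher and 1337 lower autosomal calls on the control arrays, a minimum rank of 50 gave 961 higher, median-centred log2 values gave 1096 higher, and single RNAi experiments only gave 298 and 313. Leaving out 1 array gave 90 to 4303 higher and 114 to 3771 lower. A fit without a WD44 array leaves 1 there, assumed to vary like PGK12.1. On the Kdm6a RNAi arrays (1055 and 1158), single RNAi only gave 250 and 304, and leaving out 1 array 80 to 3808 and 99 to 3769. Against 4313 and 3468 genes without overlap, a minimum rank of 50 gave 2750 higher, a gap of at least 5 points 1094 and 1032, and control 4 alone, chosen after seeing the data, 7503 and 5950, since fewer arrays must separate. Leaving out 1 array gave 4430 to 6012 and 3548 to 5247. The percent repeated on the Kdm6a RNAi arrays (71.5 and 84.2) was 68.8 and 82.9 with no minimum, 77.6 (higher) at a minimum of 50, 69.0 and 82.0 on median-centred values, 75.7 and 81.9 with ranks over genes, 76.0 (higher) with single RNAi only, and 70.2 to 82.0 and 82.1 to 89.7 without 1 array. The cause of these changes was not tested except where stated.

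The replicate numbers do not pair the lines (correlations of deviations from -0.046 to 0.046). With a replicate block, calls were 5055 higher and 4387 lower on the control arrays and 4835 and 4828 on the Kdm6a RNAi arrays, with 1 residual degree of freedom.

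Of 1925 values of the 131 named genes under the alternatives, 1590 kept direction and side of the threshold, 255 lost the call, 79 gained it and 1 reversed: Hspa5 differed by -0.7 points on ranks and by 0.16 on median-centred log2 values. The scale covariate ended 21 of the 102 calls, single RNAi only 39, and leaving out WD44 control 1 or 2 ended 67 and 69.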
